A study of Macaca mulatta with 60 samples.

Results

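The right ventricle (RV) of the rhesus monkey (Macaca mulatta) fetus after maternal exposure to bisphenol A (BPA) in late gestation (LG) was described from 6 arrays, out of 60 arrays in 5 tissues. The members were chosen by their labels alone and are 3 BPA exposed fetuses (numbers 10, 11 and 12) and 3 vehicle controls (numbers 7, 8 and 9). BPA is a plastics monomer that can bind estrogen receptors. The dams of the BPA group ate fruit that carried 400 µg/kg body weight of BPA in ethanol each day from gestation day 100 to term, and the control dams ate fruit with ethanol alone. All fetuses were females, no group carried a transgene or deletion by the labels, and the LG samples were taken after vaginal delivery. An early gestation (EG) set of 6 RV arrays, with exposure from day 50 to day 100, came from other fetuses (3 controls and 3 BPA exposed), which were taken by caesarian section. Window, age and mode of delivery therefore cannot be told apart between EG and LG. Total RNA of whole ventricular tissue was measured, so that fewer cells of a type cannot be told apart from less RNA per cell.

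The right ventricle pumps blood into the pulmonary artery and, before birth, through the ductus arteriosus into the body, so that in the fetus it carries much of the systemic load. Its muscle makes a mix of alpha (Myh6) and beta myosin heavy chains, and around birth its fuel shifts from glucose and lactate toward fatty acids. The extracellular matrix between the muscle cells is remodelled by secreted proteases and metalloproteases as the chamber grows. Besides messenger RNAs, the array carried small RNAs, which serve splicing (U6 and U4), modification of ribosomal RNA (small nucleolar RNAs), silencing of messengers (microRNAs), pausing of transcription (7SK), protein export (signal recognition particle RNA) and translation (5S ribosomal RNA).

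All values are log2 RMA levels (a robust average over the probes of a transcript), on which a difference of 1 is a doubling. By the study's methods small RNAs had only 1 or 2 probes each, against 6 for nearly all gene transcripts, so for them there was little or nothing to average. A transcript was called differentially expressed where the log2 fold change (LFC, BPA minus control) was at least 1 in size and the unadjusted limma p was at most 0.01, the criteria of the study. Of 12031 transcripts that varied enough to be tested, out of 26149 on the array, 66 were called (0.549% of those tested). Of these, 31 (0.258%) were higher and 35 (0.291%) lower in BPA exposed fetuses. After Benjamini-Hochberg adjustment limma left 0 transcripts at an adjusted p of at most 0.05, where 321 had an unadjusted p of at most 0.05 and 68 one of at most 0.01 (1% of the tested transcripts is 120.3). The smallest adjusted p was 0.194. With 3 fetuses against 3, an exact permutation test, two-sided, reaches 0.1 at best.

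The spread among fetuses of the same group was larger than the difference between the groups for most transcripts. Over the tested transcripts, the median SD was 0.56 among the 3 controls and 0.66 among the 3 BPA exposed fetuses, and the median size of the LFC was 0.26. In the EG arrays of the same chamber the median SDs were 0.33 and 0.26. The difference exceeded both SDs for 1242 transcripts (10.3%), and the groups did not overlap for 543 transcripts (4.51%), 297 of them with all BPA exposed fetuses higher and 246 lower. A LFC of at least 1 in size was reached by 371 transcripts, of which 305 did not reach the p criterion and 154 had groups that did not overlap. The called transcripts were tighter than the rest by construction, with a median SD of 0.46 among controls and 0.41 among BPA exposed fetuses against a median LFC of 1.46 in size.

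**Figure D1:**
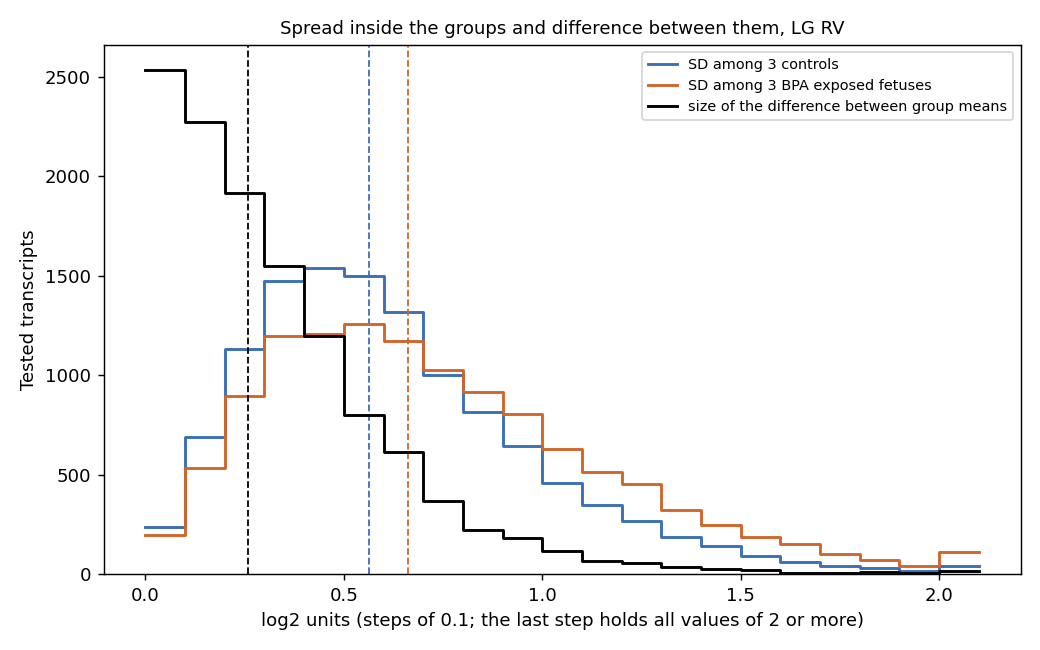
Number of tested transcripts (vertical axis) by SD among the 3 controls (blue), SD among the 3 BPA exposed fetuses (orange) and size of the difference between the group means (black), in log2 units on the horizontal axis, with dashed lines at the medians. The median difference of 0.26 lies to the left of both median SDs, 0.56 and 0.66.

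An array from each group stood apart from the others, and these 2 arrays resembled each other. The median correlation with the other 11 RV arrays, over all transcripts, was 0.902 for control fetus 7 and 0.848 for BPA exposed fetus 12, and 0.953 to 0.966 for the other LG arrays. The closest LG array to fetus 7 was that of fetus 12 (r = 0.948) and the closest to fetus 12 was that of fetus 7, across the group boundary. Fetus 9 and fetus 11, a control and a BPA exposed fetus, were the closest LG pair of all, with a median difference of 0.39 per transcript, whereas fetuses 11 and 12 of the BPA group differed by 1.02. The first principal component of the 6 arrays held 61.9% of the variance of the tested transcripts and separated fetuses 7 (58.5) and 12 (97.3) from the other 4 (-64.9 to -15.1). Among described transcripts, those with the strongest weight toward fetuses 7 and 12, named after their values were seen, were mostly small RNAs. mir-346 was at 7.39 and 7.96 in fetuses 7 and 12 and at 4.25 to 5.44 in the other 4, a mitochondrial tRNA (ENSMMUT00000038278) at 11.24 and 11.12 against 7.66 to 9.56, and SNORD41 at 10.28 and 10.15 against 7.46 to 8.20. Myh6 had the strongest weight in the opposite direction among them. In left ventricle (LV), left atrium, right atrium and biceps femoris muscle, neither fetus gave the least correlated array, although fetus 7 gave the second lowest of 12 in LV (0.905).

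Myh6, Pdk4, Gyg1 and Thrb overlapped between the groups, and each differed more among the BPA exposed fetuses than between the group means. Myh6, the fast alpha myosin heavy chain, was at 6.47, 14.23 and 14.01 in control fetuses 7, 8 and 9 and at 12.84, 13.68 and 7.63 in BPA exposed fetuses 10, 11 and 12. Its LFC of -0.19 carried a SE of 2.16 (limma adjusted p = 1.00), and the difference of means was -2.74 without control fetus 7 and 1.69 without BPA exposed fetus 12. The array medians were 6.24 to 6.30. In EG RV, Myh6 also spread widely, from 5.51 to 11.91 in controls and from 7.43 to 12.77 after BPA, so for this gene the levels of fetuses 7 and 12 lay inside the range of EG fetuses. Of the cardiac markers that had been listed, Myh6 alone could be matched to a transcript. It is made in atria as well as ventricles, so the ventricular label could not be checked against markers here. In LV, under the same sample numbers, the LFC of Myh6 was -5.38 (SE 1.52).

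Pdk4, a kinase that holds back glucose oxidation, followed the same fetuses, with 8.43, 11.34 and 10.89 in controls and 11.01, 11.59 and 8.57 after BPA (LFC 0.17, SE 0.79). Gyg1, the protein core on which glycogen is started, was at 7.37, 8.74 and 9.56 in controls and 8.44, 9.55 and 7.26 after BPA (LFC -0.14, SE 0.57). Thrb, the beta thyroid hormone receptor, was at 7.66, 8.19 and 8.44 in controls and 7.86, 8.66 and 5.18 after BPA (LFC -0.86, SE 0.66). Without BPA exposed fetus 12 its difference of means was 0.16. For each of these 3 genes the groups overlapped, and the lowest fetus of each group was 7 among controls and 12 among BPA exposed fetuses. Unlike Myh6, these levels were not all inside the EG range. Gyg1 was at 9.09 to 9.67 in the 6 EG fetuses, above fetuses 7 and 12, Thrb at 6.59 to 7.77, above fetus 12, and Pdk4 at 5.84 to 7.39, below all 6 LG fetuses. The precursors of miR-205 and miR-224 varied too little to be tested, between 3.60 and 4.47 in all 6 fetuses.

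**Figure D2:**
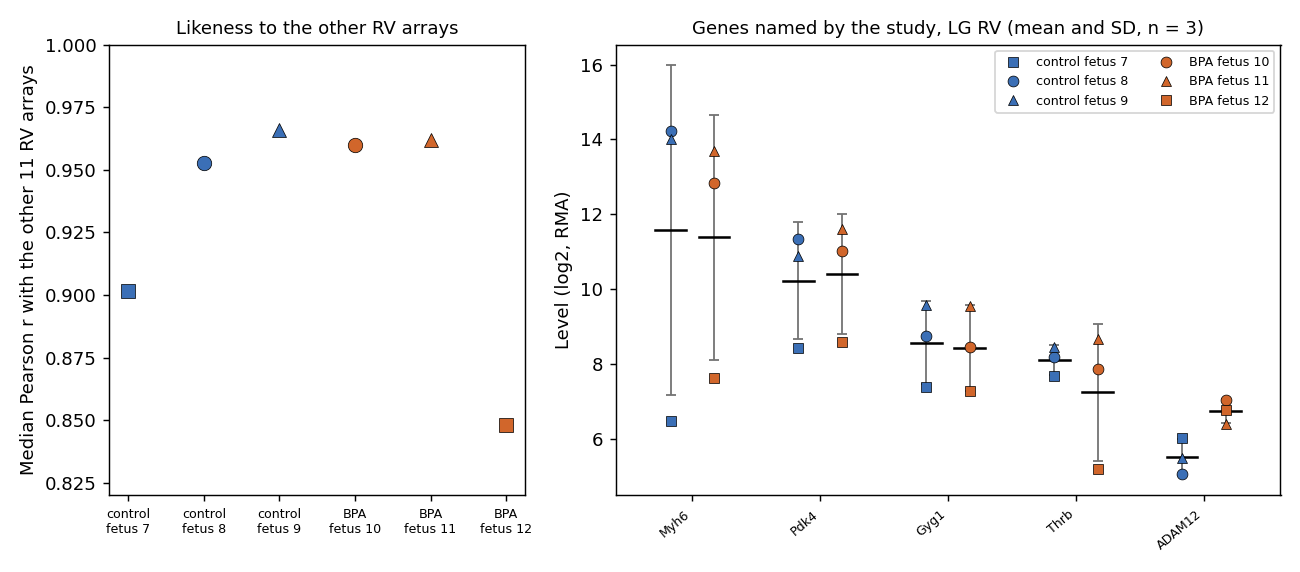
Left, the median Pearson correlation of each LG RV array with the other 11 RV arrays; right, log2 RMA levels of Myh6, Pdk4, Gyg1, Thrb and ADAM12 in each LG fetus, controls in blue and BPA exposed fetuses in orange, with the group mean and SD of 3. The squares, fetuses 7 and 12, are lowest in their group in all panels but ADAM12, where fetus 7 is the highest control.

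By the study's descriptions, 18 of the 66 called transcripts were proteins (11 higher, 7 lower) and 48 (72.7%) were small or non-coding RNAs (20 higher, 28 lower). By the study's methods the array held several times more gene transcripts than small RNAs, but which of the tested transcripts were small RNAs is not known here, so no share among those tested can be set beside this one. Among the proteins, 11 had a name, 9 of them higher and 2 lower after BPA. The 3 with the clearest role outside the cell were ADAM12, EFEMP1 and HTRA3. ADAM12, a metalloprotease that sheds growth factors from the cell surface, was at 6.02, 5.06 and 5.47 in controls and 7.03, 6.40 and 6.76 after BPA (LFC 1.21, SE 0.36, limma adjusted p = 1.00, exact permutation p = 0.1). EFEMP1 (EGF-containing fibulin-like extracellular matrix protein 1), a glycoprotein of elastic matrix, was at 4.98, 6.38 and 5.85 in controls and 8.24, 6.96 and 6.67 after BPA (LFC 1.55, SE 0.47). HTRA3, a secreted serine protease, was at 7.96, 7.87 and 8.46 in controls and 8.74, 9.10 and 9.52 after BPA (LFC 1.03, SE 0.34). All 3 BPA exposed fetuses lay above all 3 controls for each of them, with a gap smaller than the range inside either group.

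These 3 genes were the called members of 12 matrix and remodelling genes, 6 of which varied enough to be tested, and the median LFC over all 12 was 0.34, against 0.01 over all 26149 transcripts. For comparison, the median was 0.36 over 12 leukocyte markers and -0.16 over 10 cardiac and fuel genes. The 3 calls are no count to set against the 0.549% called over all, because these genes were put on the list with their values known. The study's own list for this comparison held every call. Without the members that entered through it, 3 tested genes remained, with a median LFC of 0.22 and 0 calls by construction. Connective tissue growth factor was among them, with overlapping groups (LFC 0.77, SE 0.58). The mean level over all 12 genes was 5.57 to 5.71 in the control fetuses and 5.85 to 6.28 in the BPA exposed fetuses, and it includes the 3 called genes.

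CRABP1, which binds retinoic acid in the cytosol, had the largest LFC in size of the 11 named proteins (2.24, SE 0.66) and the widest spread among them. Its levels were 4.83, 6.07 and 6.91 in controls and 8.13, 9.56 and 6.83 after BPA, so that BPA exposed fetus 12 lay below control fetus 9. UNC5D, a netrin receptor known from axon guidance, was at 5.18, 6.44 and 6.40 in controls and 8.19, 7.36 and 6.70 after BPA (LFC 1.42, SE 0.47). BACH2, a transcription repressor known from lymphocytes, was at 6.62, 6.82 and 8.02 in controls and 8.98, 8.03 and 8.44 after BPA (LFC 1.33, SE 0.41). For UNC5D and BACH2 the groups did not overlap, but for BACH2 the lowest BPA exposed fetus and the highest control were level to within 0.1.

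The other named proteins called higher were membrane proteins. Sugar phosphate exchanger 2, a transporter of the endoplasmic reticulum, was at 5.40, 5.37 and 5.17 in controls and 6.23, 5.94 and 7.37 after BPA (LFC 1.20, SE 0.40). The adhesion receptor GPR133 was at 5.25, 4.80 and 5.09 in controls and 6.39, 5.83 and 6.29 after BPA (LFC 1.12, SE 0.37). TM4SF19 (transmembrane 4 L6 family member 19) was at 4.96, 4.62 and 4.22 in controls and 6.11, 5.77 and 5.37 after BPA (LFC 1.15, SE 0.38). In all 3 the groups were separate, and for the exchanger the SD was 0.12 among controls and 0.76 after BPA, with fetus 12 the highest, and without that fetus the LFC was 0.77. Sugar phosphate exchanger 2 was also the single called member of 10 cardiac and fuel genes, all of them tested, whose median LFC was -0.16. It came onto the list through the study's list for this comparison, which held every call. The 0 calls among the other 9 genes were therefore fixed beforehand (0.549% over all), and their median LFC was -0.19.

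EIF5A2, a translation factor, was the tightest of the called proteins. It was at 6.50, 6.66 and 6.54 in controls and 5.28, 5.56 and 5.63 after BPA (LFC -1.07, SE 0.31), and its SDs were 0.09 and 0.19. The transmembrane protein FAM155B was at 6.37, 6.58 and 5.95 in controls and 4.27, 5.03 and 5.69 after BPA (LFC -1.30, SE 0.42). Both were lower in every BPA exposed fetus than in any control. The 7 called protein transcripts without a name had LFCs between -2.30 and 1.24, 2 positive and 5 negative. Their groups did not overlap, which the p criterion itself favours.

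**Figure D3:**
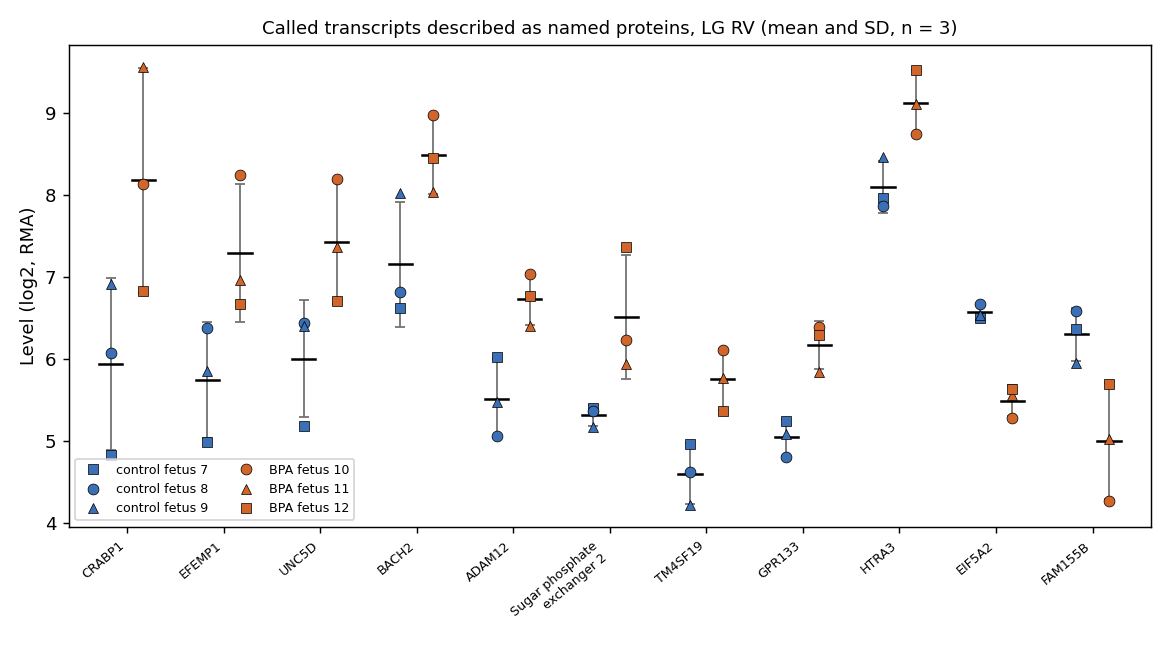
Log2 RMA levels of the 11 called transcripts with a protein name in each LG RV fetus, controls in blue and BPA exposed fetuses in orange, with the group mean (line) and SD (bar) of 3. The groups overlap for CRABP1 alone, and the SD differs widely between genes, from 0.09 for EIF5A2 controls to 1.37 for CRABP1 after BPA.

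Levels in EG RV, from the same normalization, can be set beside these values. For CRABP1 the 6 EG fetuses lay between 8.52 and 10.07, above 5 of the 6 LG fetuses. For EFEMP1 they lay between 7.54 and 8.74, for UNC5D between 7.52 and 8.99, for BACH2 between 8.21 and 8.90 and for ADAM12 between 7.08 and 7.76. In these 4 genes every EG fetus was above all 3 LG controls. The LG BPA exposed fetuses lay between the LG controls and the EG fetuses or among the EG fetuses, apart from BACH2 in fetus 10, which was above them. For HTRA3 the order was the opposite, with 7.31 to 7.85 in EG fetuses, below all 6 LG fetuses. The difference between EG and LG controls and the difference between LG BPA and LG controls share the LG controls, so no count was made over genes.

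Small nucleolar RNAs, which guide chemical marks onto ribosomal and spliceosomal RNA, gave 2 of the 5 smallest p-values. SNORD77 (ENSMMUT00000049023) was at 4.56, 3.92 and 4.20 in controls and 6.08, 6.43 and 6.28 after BPA (LFC 2.04, SE 0.34, limma adjusted p = 0.194). Its controls were close to the bottom of the measured range, where the background is unknown, so the size of this difference is uncertain. SNORD69 (ENSMMUT00000048784) was at 5.35, 5.38 and 5.67 in controls and 7.20, 7.14 and 7.88 after BPA (LFC 1.94, SE 0.39, limma adjusted p = 0.716). In both, the gap between the groups was wider than the range inside either group. In EG fetuses SNORD69 lay between 6.69 and 8.06, like the LG BPA exposed fetuses and above the LG controls.

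Both called transcripts of the SNORD113/SNORD114 family, whose members stem from an imprinted cluster, were higher after BPA. One (ENSMMUT00000050957) was at 5.23, 5.57 and 5.02 in controls and 6.57, 7.27 and 6.44 after BPA (LFC 1.48, SE 0.39). The other (ENSMMUT00000033627) was at 4.79, 4.24 and 5.24 in controls and 6.81, 5.53 and 6.10 after BPA (LFC 1.39, SE 0.40). SNORA25 (ENSMMUT00000035059), a guide for pseudouridines, was at 8.09, 7.01 and 7.71 in controls and 9.27, 8.62 and 8.88 after BPA (LFC 1.32, SE 0.44). All 3 were separate between groups. Of transcripts with the same descriptions that were not called, named after their values were seen, the SNORD113/SNORD114 members ENSMMUT00000035699 and ENSMMUT00000037756 had LFCs of 0.95 (SE 0.54) and 0.10 (SE 0.42), and the SNORA25 transcript ENSMMUT00000035779 one of -0.04 (SE 0.36), all with overlapping groups. Members of this family can be near-identical, and which copy a probe measured was not tested.

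The 3 small nucleolar RNAs with lower levels after BPA were SNORD115, SNORD45 and SNORD74. SNORD115, from another imprinted cluster and known from brain, was at 7.58, 7.03 and 5.69 in controls and 4.15, 5.09 and 5.58 after BPA (LFC -1.82, SE 0.54). SNORD45 was at 7.66, 6.60 and 7.86 in controls and 5.69, 6.76 and 5.06 after BPA (LFC -1.54, SE 0.48), and BPA exposed fetus 11 lay above control fetus 8. SNORD74 (ENSMMUT00000035047) was at 5.50, 5.02 and 5.42 in controls and 4.00, 3.84 and 4.33 after BPA (LFC -1.26, SE 0.41), while another SNORD74 transcript (ENSMMUT00000035286, named after its values were seen) had overlapping groups and a LFC of 0.33 (SE 0.87). Another SNORD115 transcript, ENSMMUT00000048847, named likewise, had a LFC of -0.44 (SE 0.41) and was not tested for lack of variation. Of 39 small nucleolar RNAs with a description, 32 were tested and 8 called, with a median LFC of 0.05 over all 39, but the called ones have a description because the study listed them for this comparison. Every call was on that list, so the 24 tested ones described from other comparisons could hold none. Their 0 calls were not read against the 0.549% of all tested transcripts.

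Of 27 microRNAs with a name, 21 were tested, 1 was called higher and 4 lower. These 5 have a name here because the study listed them for this comparison, so their count was not read against the 0.549% called over all transcripts. The probes measured precursor transcripts as named in the annotation, and mature strands could not be told apart. mir-452 (ENSMMUT00000036785), which shares a host intron with mir-224, was at 6.86, 8.01 and 6.30 in controls and 5.30, 4.33 and 3.55 after BPA, the most negative LFC of all tested transcripts (-2.66, SE 0.76, limma adjusted p = 1.00). mir-18 was at 7.80, 7.49 and 6.06 in controls and 5.94, 3.83 and 4.74 after BPA (LFC -2.28, SE 0.77). For both, the SDs lay between 0.87 and 1.06, and for mir-18 control fetus 9 lay 0.12 above BPA exposed fetus 10.

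mir-518c, from a primate cluster known from placenta, was at 7.23, 7.21 and 4.42 in controls and 4.22, 4.01 and 4.34 after BPA (LFC -2.09, SE 0.60). Its difference rested on control fetuses 7 and 8, since control fetus 9 lay less than 0.1 above BPA exposed fetus 12. mir-16-2, whose family restrains the cell cycle, was at 4.85, 6.47 and 4.86 in controls and 3.42, 3.96 and 4.05 after BPA (LFC -1.58, SE 0.43), and without control fetus 8 the LFC shrank to -1.04. mir-197 was at 6.62, 5.48 and 7.26 in controls and 7.69, 7.96 and 8.43 after BPA (LFC 1.57, SE 0.52).

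A further 5 transcripts described as microRNAs without a name were called, all of them higher after BPA (LFC 1.38 to 2.34). How many such transcripts were tested is not known here, so no share can be set beside the 0.258% called higher over all. The one with the smallest p, ENSMMUT00000048412, was at 7.79, 7.72 and 7.28 in controls and 9.38, 9.07 and 9.12 after BPA (LFC 1.59, SE 0.38), with a gap wider than the range of either group. Every call was on the study's list for this comparison. The 16 tested microRNAs with a name described from other comparisons could therefore hold none, and the median LFC of all 27 with a name was 0.16.

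U6 spliceosomal RNA, which forms the catalytic core of the spliceosome, was described for 18 called transcripts, 4 higher and 14 lower after BPA. How many of the tested transcripts are U6 copies is not known here, so the number may follow the size of the family. The lowest p belonged to ENSMMUT00000050571, at 6.80, 6.80 and 6.42 in controls and 4.11, 3.96 and 4.41 after BPA (LFC -2.51, SE 0.42, limma adjusted p = 0.194), and here the BPA exposed fetuses were close to the bottom of the measured range. In the opposite direction, ENSMMUT00000037347 was at 4.11, 4.92 and 6.13 in controls and 7.02, 7.27 and 7.38 after BPA (LFC 2.17, SE 0.62). Transcripts of the same class therefore differed in both directions. In 17 of 18 the groups did not overlap, which the p criterion itself favours. Groups were also separate in 154 of the 371 tested transcripts of any class with a LFC of at least 1 in size. Over the 66 U6 transcripts with a description the median LFC was -0.31, and over the 48 that the study described from other comparisons it was -0.25. Of these 48, 40 were tested and could hold no call, because the study's list for this comparison held every call (0.549% over all). In 8 of the 40 the groups did not overlap, against 4.51% over all tested transcripts, and 16 had a positive LFC. The 40 copies can be near-identical, and this share was not tested.

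U4 RNA, the partner of U6 before splicing, had the tightest groups of all named transcripts. ENSMMUT00000034008 was at 4.18, 4.09 and 4.13 in controls and 5.58, 5.53 and 5.58 after BPA (LFC 1.43, SE 0.38). Its SDs were 0.05 and 0.03, while its SE came from the spread over all 12 RV arrays. The controls of this transcript were close to the bottom of the measured range, where the background is unknown. Their tightness and the size of the difference are therefore uncertain.

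Y RNAs, which bind the Ro protein, gave 2 called transcripts that were higher and 3 that were lower. ENSMMUT00000038068 was at 7.28, 6.62 and 6.59 in controls and 4.89, 5.44 and 5.40 after BPA (LFC -1.59, SE 0.37), with a gap wider than either group's range. ENSMMUT00000035273 was at 4.74, 7.06 and 5.33 in controls and 7.40, 7.83 and 7.01 after BPA (LFC 1.70, SE 0.56), and control fetus 8 overlapped the BPA exposed fetuses. Both directions thus appeared in this class too, and the median LFC over the 45 described members was -0.10. Of these 38 were tested, and the 5 called ones have a description through the study's list for this comparison. Every call was on that list, so the 33 tested ones described from other comparisons could hold none. Their 0 calls were not read against the 0.549% over all.

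7SK RNA, which keeps the elongation factor of RNA polymerase inactive, gave 1 called transcript that was higher and 2 that were lower. ENSMMUT00000050311 was at 4.48, 5.58 and 5.04 in controls and 6.87, 7.39 and 6.16 after BPA (LFC 1.78, SE 0.49). ENSMMUT00000050842 was at 7.50, 6.22 and 5.84 in controls and 5.65, 5.09 and 4.79 after BPA (LFC -1.34, SE 0.42). In both the groups were separate, and without control fetus 7 the LFC of ENSMMUT00000050842 was -0.85. Of 13 tested 7SK transcripts, the 3 called ones were again described through the study's list for this comparison. That list held every call, so the 0 calls among the 10 described from others were fixed beforehand and were not read against 0.549%.

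Both called 5S ribosomal RNAs were lower after BPA, led by ENSMMUT00000051013 at 5.39, 7.01 and 6.43 in controls and 4.93, 3.85 and 5.51 after BPA (LFC -1.51, SE 0.49). In that transcript BPA exposed fetus 12 lay above control fetus 7. A signal recognition particle RNA, ENSMMUT00000050204, was at 4.47, 4.07 and 4.11 in controls and 5.34, 5.35 and 5.11 after BPA (LFC 1.05, SE 0.33). The median LFC was 0.16 over all 22 described ribosomal RNAs and -0.01 over all 26 described signal recognition particle RNAs. Apart from those described through this comparison, whose list held every call, 17 ribosomal and 20 signal recognition particle RNAs were tested. Their 0 calls were fixed beforehand and were not read against the 0.549% over all. U6, Y, 7SK, signal recognition particle and 5S RNAs are families of near-identical copies, so values of single copies are uncertain.

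**Figure D4:**
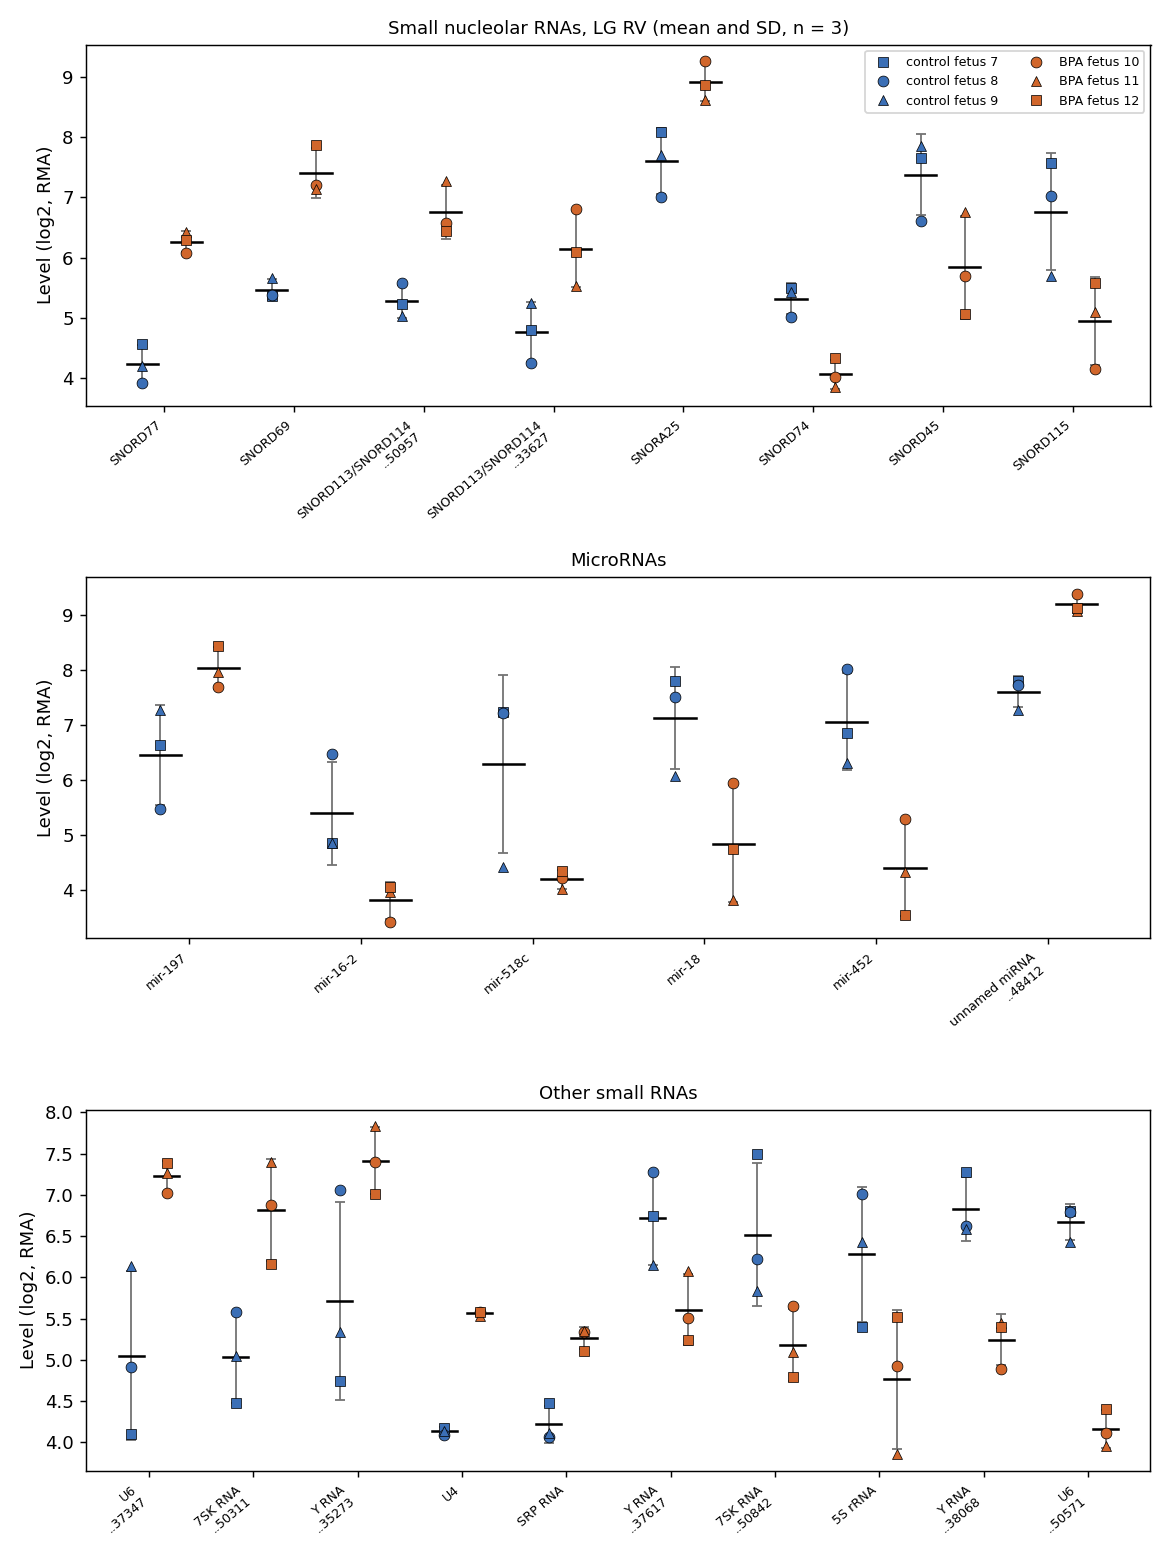
Log2 RMA levels of the called small RNAs described in the text in each LG RV fetus, in panels for small nucleolar RNAs, microRNAs and other small RNAs, controls in blue and BPA exposed fetuses in orange, with the group mean (line) and SD (bar) of 3. Groups are tight and separate for SNORD77, SNORD69, U4 and U6 ENSMMUT00000050571, and wide for mir-452, mir-18 and SNORD45. For mir-518c the controls alone are wide (SD 1.62, against 0.17 after BPA). The SNORD77 and U4 controls and the BPA exposed fetuses of that U6 RNA lie close to the bottom of the measured range.

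Several calls lay close to the bottom of the measured range. In 22 of 66 the dimmer group had a mean below 4.74, the 25th percentile of all transcripts, and the lowest 1% of values on an array began at 3.72 to 3.77. The called transcripts nearest to the criteria were Y RNA ENSMMUT00000037617 (LFC -1.11, unadjusted limma p = 0.00973, exact permutation p = 0.1) and mir-18 (unadjusted limma p = 0.00986). Just outside them lay ENSMMUT00000036807 (LFC -1.58, unadjusted limma p = 0.0105, exact permutation p = 0.1) and ENSMMUT00000035309 (LFC 1.07, unadjusted limma p = 0.0107), which have no description in the lists used and whose groups did not overlap either. Of the 66 called transcripts 61 had separate groups, against 4.51% of all tested ones and 154 of the 371 with a LFC of at least 1 in size, but the p criterion itself favours separate groups. The 5 exceptions were CRABP1, SNORD45, the 5S RNA ENSMMUT00000051013, the Y RNA ENSMMUT00000035273 and a U6 RNA named after its values were seen, ENSMMUT00000033672.

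With a fetus left out, 51 of 66 differences of means stayed at least 1 in size in all 6 cases. Their direction says little here, since it cannot turn where the groups do not overlap. In all 6 fits with a fetus left out, 8 of 66 were called. These were SNORD77, SNORD69, the U4 RNA, the Y RNA ENSMMUT00000038068, the unnamed microRNAs ENSMMUT00000048412 and ENSMMUT00000036839, and the U6 RNAs ENSMMUT00000050571 and ENSMMUT00000048702, of which ENSMMUT00000036839 and ENSMMUT00000048702 are named here after their values were seen. Without both fetus 7 and fetus 12, 6 of these 8 and 22 of all 66 were called, and the fit then called 91 transcripts (47 higher, 44 lower). None of the 11 named proteins was called in all 6 fits, while EFEMP1 was called in 4, CRABP1, ADAM12 and UNC5D in 3, BACH2, HTRA3, TM4SF19, EIF5A2 and FAM155B in 2, and GPR133 and sugar phosphate exchanger 2 in 1. Of 35 named calls, the fit kept 14 without control fetus 8 or BPA exposed fetus 10, 15 without control fetus 7 and 24 without control fetus 9. In the BPA group, 18 were kept when fetus 11 was dropped and 23 when fetus 12 was dropped. The number of calls itself lay between 49 without control fetus 8 and 149 without BPA exposed fetus 11, with 104 without BPA exposed fetus 12. The share of higher ones was 68.3% without BPA exposed fetus 10 (43 of 63) and 35.6% without control fetus 9 (31 of 87).

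In EG RV, limma called 74 of 12031 transcripts (0.615%), and 0 of the 66 were among them, a count too small to be told from that share. Of the 66, 22 passed the same criteria for the difference between the LG and the EG effect, which shared no fetus (62 of all 12031 tested, 0.515%, passed it, 14 upward and 48 downward). No adjusted p of that difference was at most 0.05. Because all 66 were chosen by their LG effect, their share is higher than that of all transcripts by construction. Among the named ones, EFEMP1 had a LFC of -0.46 in EG (difference 2.02, SE 0.66), UNC5D of -0.71 (difference 2.13, SE 0.67) and mir-452 of 0.77 (difference -3.43, SE 1.07). For SNORD77 the EG value was 0.23 (difference 1.80, SE 0.48), and for U6 ENSMMUT00000050571 it was 0.00 (difference -2.52, SE 0.60). For ADAM12 the EG LFC of -0.11 did not differ from the LG value by the criteria (difference 1.33, SE 0.51).

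In LV samples with the same numbers, where levels were normalized separately, 54 of 9221 tested transcripts (0.586%) had a LG effect that differed from the one in RV by the criteria, and 5 of the 66 were among them, a share raised by construction because the RV effect that chose the 66 is a term of this difference. With the fetus as a replicate block, 3 of these 5 passed, and SNORD69 and ENSMMUT00000049708 did not. SNORD69 had a LFC of -0.22 in LV (RV minus LV 2.16, SE 0.65), and Y RNA ENSMMUT00000038068 one of 0.95 (RV minus LV -2.53, SE 0.77). The SNORD113/SNORD114 transcript ENSMMUT00000033627 had -1.86 in LV (RV minus LV 3.25, SE 0.80) and 7SK ENSMMUT00000050311 had -1.88 (RV minus LV 3.66, SE 1.22). ADAM12 was higher after BPA in LV too (LFC 1.68, SE 0.26), and HTRA3 had a LFC of 0.52 there (SE 0.30). The fifth transcript, named after its values were seen, was the unnamed microRNA ENSMMUT00000049708, which was at 5.10, 4.67 and 6.76 in RV controls and 7.50, 9.01 and 7.04 after BPA.

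**Figure D5:**
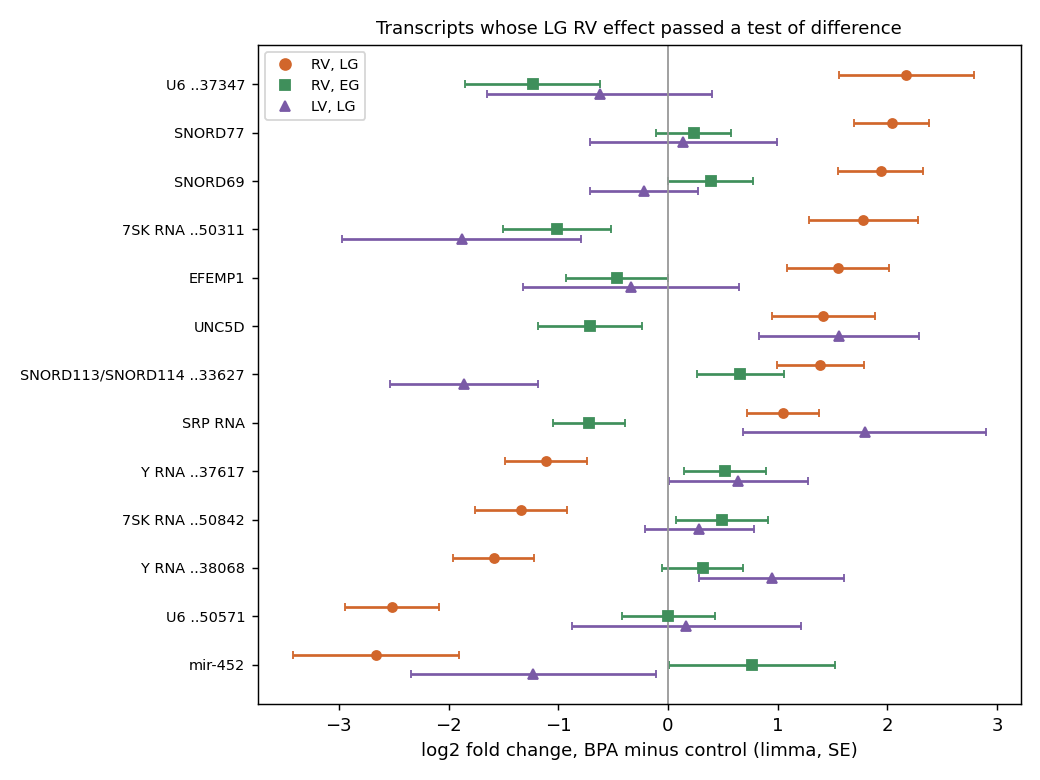
LFC of BPA against control with its SE (limma) in LG RV (orange circles), EG RV (green squares) and LG LV (violet triangles) for the 13 named transcripts whose LG RV effect passed the criteria of a difference from EG RV or from LG LV. UNC5D, the signal recognition particle RNA and mir-452 have LG LV values of more than 1 in size on the side of the LG RV value, and the EG RV values of the 13 lie between -1.23 and 0.77.

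Genes of other cell types were read beside these results. None of the listed markers was on the study's list for this comparison, which held every call. Their 0 calls were therefore fixed beforehand and were not read against the 0.549% called over all. These lists are short, and at 4.51% with separate groups over all tested transcripts, a single separate marker is near the background. Of 12 leukocyte markers, 8 were tested, 0 were called, and the median LFC of all 12 was 0.36. Their mean level was 5.20 to 5.53 in controls and 5.46 to 6.01 after BPA, with fetus 12 the highest, and cytokine receptor common subunit beta had separate groups (5.08, 4.69 and 5.01 against 5.41, 5.13 and 6.31). Of 8 neural markers, 4 were tested and 0 called (median LFC of all 8, 0.22), and synaptic vesicle glycoprotein 2A had separate groups at a LFC of 0.44 (SE 0.39). Their mean level was highest in fetuses 7 (4.93) and 12 (5.18) and 4.47 to 4.70 in the other 4. Myosin-11, of smooth muscle, had a LFC of 0.30 (SE 0.51), and the erythroid synthase ALAS2 one of 0.96 (SE 0.58), with overlapping groups. The part of these cell types in the called transcripts was not tested.

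Interferon and cell cycle genes were likewise all described from other comparisons, so their 0 calls were fixed beforehand and were not read against 0.549%. Among 4 interferon genes, 3 were tested, with LFCs from -0.87 to 1.14, and TRIM34 (tripartite motif-containing protein 34) had separate groups at 4.93, 4.76 and 4.93 against 5.42, 5.33 and 5.83 (LFC 0.66, SE 0.33). The 4 cell cycle genes, all tested, had LFCs from -0.14 to 1.20 and overlapping groups. Outside the tested set, hyaluronan synthase 1, which makes a matrix polysaccharide, had separate groups at 4.62, 4.49 and 4.33 against 5.04, 4.65 and 5.85 (LFC 0.70, SE 0.29).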

How the data were processed

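RNA was hybridized to custom 1-colour NimbleGen arrays designed from Ensembl transcripts of the rhesus build Mmul_1. Ventricular cDNA was not amplified, and all RV samples shared a slide. The log2 values were deposited by the authors after background correction, quantile normalization within each tissue and a median polish over the probes of a transcript, of which small RNAs had 1 or 2. Scanner intensities were not used here, so background is unknown, and precision is limited by the number of arrays. Groups came from the labels.

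Group means over the 12 RV arrays were fitted with limma 3.58.1 in R 4.3.3 to the 12031 of 26149 transcripts whose interquartile range was 0.5 or more. The LG minus EG and the RV minus LV contrasts used the same criteria. Exact two-sided permutation tests ran on single transcripts. Tables were made with Python (3.11.15), numpy (2.4.6) and pandas (2.3.3), and plots with matplotlib (3.10.9). The fits were tested on simulated data, and repeated with other filters, scalings, priors, weights and thresholds and with each LG fetus left out. Names came from the descriptions in the study's supplementary lists, which cover 571 transcripts, so lists hold genes that the study had found to differ somewhere. The arrays were set by their labels, but this comparison as the subject, the list members and the tests were chosen with earlier results of these data known. Named were all called transcripts with a protein, microRNA or small nucleolar RNA name, the extremes of other classes, the 5 smallest p-values, genes the study discusses, the 4 transcripts nearest the criteria, and list members whose groups did not overlap. The sign of a transcript that was not called counted as reversed where the LFC exceeded its SE.

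RV and LV samples share sample numbers in the labels, which were read as the same fetus, since the chambers came from one set of fetuses, although no source ties a number to an animal. The correlation of their deviations from group means had a median of 0.126 (-0.0203 to 0.329) and was over 0.1 in 7 of 12 fetuses. No sequences are shown, as none of the tables used here held them.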

Additional observations from a re-analysis of the deposited data

Results flagged for a closer look

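For 13 of the named transcripts, a test of the difference between effects passed the criteria (a difference of at least 1 in size with an unadjusted limma p of at most 0.01). No adjusted p of these differences was below 0.887. Between LG and EG in RV, the difference was positive for SNORD77 (1.80), EFEMP1 (2.02), UNC5D (2.13), U6 ENSMMUT00000037347 (3.41), 7SK ENSMMUT00000050311 (2.79) and the signal recognition particle RNA ENSMMUT00000050204 (1.77). It was negative for mir-452 (-3.43), U6 ENSMMUT00000050571 (-2.52), 7SK ENSMMUT00000050842 (-1.83) and the Y RNAs ENSMMUT00000038068 (-1.91) and ENSMMUT00000037617 (-1.63). Between RV and LV in LG, the difference was 2.16 for SNORD69, which did not pass with the fetus as a replicate block, 3.25 for SNORD113/SNORD114 ENSMMUT00000033627, -2.53 for Y RNA ENSMMUT00000038068 and 3.66 for 7SK ENSMMUT00000050311.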

How the results depend on the processing

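The number of called transcripts in LG RV was 66 and moved to 21 where the interquartile range had to reach 1, 23 where only LG arrays were fitted and 0 at an adjusted p of at most 0.05. It lay between 49 and 149 with a fetus left out, at 149 without BPA exposed fetus 11 and 104 without fetus 12. Array weights, whose iteration stopped before it converged, gave 86 calls, of which 29 were among the 66. For the difference between LG and EG, 62 became 129 with no filter, 21 with the stricter filter, 174 with array weights and 0 at an adjusted p of at most 0.05, and 52 to 121 with a fetus left out (111 without fetus 9, 121 without fetus 11, 95 without fetus 12). For RV minus LV, 54 became 181 without the filter, 1 at an adjusted p of at most 0.05 (the signal recognition particle RNA ENSMMUT00000050994, named after its value was seen), and 49 to 91 with a fetus left out (91 without fetus 8, 89 without fetus 9, 83 without fetus 11). With the fetus as a replicate block it was 64, with 37 of the 54 shared, and of the 66 LG calls 6 passed it against 5 without the block, 3 of them in both. The share of transcripts with separate groups, 4.51%, was 4.92% without the filter, 7.75% to 15.9% with a fetus left out, where fewer arrays have to be apart, and 28.4% without both fetus 7 and fetus 12, an alternative chosen after seeing the data. The 35 named calls kept their sign in the 15 alternatives that gave single values, which separate groups fix for most of them where a fetus is left out. Among genes that were not called, the LFC of Thrb, the only one to exceed its SE and turn, ran from -1.58 without fetus 11 to 0.16 without fetus 12, and those of Myh6 (-2.74 to 1.69), Pdk4 (-0.72 to 1.08) and Gyg1 (-0.74 to 0.43) also changed sign. With 3 fetuses a group and scanner background unknown, levels near the lower end of the arrays have no limit of detection.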
